A study of Mus musculus with 48 samples.

Results

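The genes described here are 10 genes of blood vessels and vessel growth. They were chosen by symbol, as the rows for Pecam1, Cdh5, Kdr, Flt1, Tek, Emcn, Robo4, Vegfa, Apln and Aplnr, and all 10 were found among the 47729 genes of the table. Poly(A) RNA had been sequenced from 3 snap-frozen fat depots of male mice, a visceral white depot (EFAT), a subcutaneous white depot (SFAT) and brown fat (BAT). The mice were wild-type (Cth+/+) or knockout (Cth-/-) and had spent 6 days on a diet without cystine (CysF) or on the control diet (CTRL). Cth encodes cystathionine gamma-lyase, the enzyme that releases cysteine from cystathionine, so that Cth-/- mice on the cystine-free diet lacked both this enzyme and dietary cystine. The groups were therefore Cth+/+ CTRL, Cth+/+ CysF, Cth-/- CTRL and Cth-/- CysF in each of the 3 depots, 12 groups of 4 libraries and 48 libraries in all. Age, strain and the kind of Cth allele were not given in the labels, nor whether each library of a group came from a mouse of its own, and p-values therefore describe only how far these libraries spread, which may be technical.

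Fat is laced with capillaries, and the endothelial cells that line them are held together by junction proteins and steered by growth factors. Vascular endothelial growth factor A (VEGF-A), made largely by parenchymal cells, acts on endothelium through the receptor encoded by Kdr, while the receptor encoded by Flt1 binds the ligand tightly and signals weakly, so that it often acts as a trap. Apelin, the peptide encoded by Apln, is secreted by sprouting endothelial tip cells and by adipocytes, and acts through a G protein-coupled receptor, encoded by Aplnr, that is found on endothelium, mainly of veins and growing vessels. The angiopoietin receptor Tek, the junction and surface proteins Pecam1 and Cdh5, the sialomucin Emcn and the guidance receptor Robo4 are commonly used to mark endothelial cells.

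The libraries held 16.2 to 46.0 M (mega) expected counts. Cth had 0 to 6 reads in the 24 Cth-/- libraries and 8 to 389 in the 24 Cth+/+ libraries, so each genotype label held. Mitochondrially encoded genes took 21.8 to 45.7% of the counts in BAT, 7.06 to 31.3% in SFAT and 4.82 to 14.7% in EFAT. Counts of the pseudogene Gm43512 split the libraries of every depot into those under 0.1 CPM (set A) and the rest (set B), a division that the labels do not mention. In EFAT it was uneven over the groups: all 4 Cth+/+ CysF libraries and 3 of 4 Cth-/- CTRL libraries were in set A, against 1 of 4 in Cth-/- CysF and 1 of 4 in Cth+/+ CTRL. The libraries carry numbers that recur in each depot and are used below as names. Endothelial identity was measurable everywhere, with no member at 0 in all libraries of any group and a summed level of 30 pan-endothelial genes, Tek among them, of 644 to 982 CPM in BAT, 1591 to 2321 CPM in SFAT and 1715 to 2351 CPM in EFAT. CPM are counts scaled to a total of 1 M after trimmed-mean scaling within the depot, so CPM levels of different depots cannot be compared. Changes are log2 fold changes ± SE from the edgeR quasi-likelihood test, called at an adjusted p under 0.05.

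The promoters of the VEGF-A ligand gene, of its receptor genes Flt1 and Kdr and of the apelin gene are shown because the results on ligands and receptors turn on these genes. Each run is the 250 bases before the RefSeq start (GRCm38.p6), on the gene's own strand, 5′ to 3′, with every match to GGAA or its complement TTCC, the core of ETS factor sites, in capitals. ETS factors such as Erg and Fli1 are regulators of endothelial genes. All 4 genes lie on the minus strand.
Flt1, chr5:147726012-147726261: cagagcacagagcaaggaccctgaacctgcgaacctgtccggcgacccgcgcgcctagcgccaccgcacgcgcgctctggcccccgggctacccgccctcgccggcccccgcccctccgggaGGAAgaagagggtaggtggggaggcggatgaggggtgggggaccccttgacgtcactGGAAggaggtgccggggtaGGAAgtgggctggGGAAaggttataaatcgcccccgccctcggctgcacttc
Vegfa, chr17:46032378-46032627: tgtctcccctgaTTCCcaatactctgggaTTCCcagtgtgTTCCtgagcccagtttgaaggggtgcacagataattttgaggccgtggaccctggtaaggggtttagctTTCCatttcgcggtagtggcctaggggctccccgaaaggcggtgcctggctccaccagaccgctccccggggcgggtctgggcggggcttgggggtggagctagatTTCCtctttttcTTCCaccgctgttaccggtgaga
Apln, chrX:48034854-48035103: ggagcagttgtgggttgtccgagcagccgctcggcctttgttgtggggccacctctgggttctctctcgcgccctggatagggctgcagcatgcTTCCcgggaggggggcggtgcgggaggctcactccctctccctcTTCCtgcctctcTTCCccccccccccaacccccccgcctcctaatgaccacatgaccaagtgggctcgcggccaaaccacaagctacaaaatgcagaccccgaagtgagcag
Kdr, chr5:75978456-75978705: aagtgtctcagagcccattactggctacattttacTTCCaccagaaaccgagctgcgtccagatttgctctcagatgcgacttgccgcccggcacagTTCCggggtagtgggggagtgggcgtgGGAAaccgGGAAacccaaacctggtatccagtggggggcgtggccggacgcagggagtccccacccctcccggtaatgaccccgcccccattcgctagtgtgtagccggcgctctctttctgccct
The core occurred 4 times in the Flt1 window, 6 times in Vegfa, 3 times in Apln and 4 times in Kdr. Of 32817 RefSeq promoters of this length, 93.4% held at least 1 match, with a median of 3, and 18.0% held 5 or more. Counts of 3 and 4 were thus near the median, and the 6 of Vegfa lay above it. The letters ACGTG, a form of the core of hypoxia response elements, or their complement CACGT were in none of the 4 windows and in 16.6% of all promoters. Another form of that core, GCGTG, was not counted, and it or its complement CACGC stands in the Kdr and Flt1 windows. The RefSeq table holds another Vegfa promoter (chr17:46025164-46025413), inside the annotated gene and not shown. It has 1 match to ACGTG or CACGT, at 211 bases before its start. Promoters were at hand for 7 of the 10 members. Vegfa (chr17:46016993-46032369), Flt1 (chr5:147561604-147726011), Kdr (chr5:75932827-75978458) and Apln (chrX:48025146-48034853) are protein-coding genes on the minus strand, and Aplnr (chr2:85136225-85139923) is one on the plus strand (GENCODE M21, GRCm38). Of the markers, Pecam1 (chr11:106654217-106750628) is on the minus strand, and Cdh5 (chr8:104101625-104144511), Tek (chr4:94739289-94874976), Emcn (chr3:137341067-137432185) and Robo4 (chr9:37401897-37415115) are on the plus strand.

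The first comparison sets the level of each member in the 3 depots of Cth+/+ mice on the control diet. For this the counts were scaled over all 48 libraries and divided by the length of the gene's exons (CPM per kb). Genes and depots can then be set side by side, which CPM scaled within the depot do not allow. Cdh5, for example, had means of 139 CPM in BAT and 298 CPM in SFAT, but 56.5 and 57.3 CPM per kb. Vegfa was the most abundant member in BAT, at 86.2 ± 11.7 CPM per kb (SD, n = 4). Cdh5, which encodes the cadherin of endothelial junctions, was the most abundant member in SFAT at 57.3 ± 7.78 and in EFAT at 69.7 ± 16.4 CPM per kb (SD, n = 4), and in SFAT it differed from Vegfa, at 51.9 ± 7.55, by less than 1 SD of either. Vegfa in EFAT stood at 42.3 ± 6.74 CPM per kb, and Pecam1 and Kdr came next in all 3 depots. At the other end stood Apln in BAT, with 0.936 ± 0.766 CPM per kb, a level at which 1 library held only 23 reads.

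In BAT, Cdh5 reached 56.5 ± 5.34, Kdr 28.2 ± 2.64, Pecam1 21.5 ± 1.78, Flt1 12.8 ± 0.528 and Tek 11.3 ± 0.486 CPM per kb (SD, n = 4). Each of these means lay more than 1 SD from its neighbours. Below them Aplnr at 5.59 ± 1.79, Emcn at 5.05 ± 0.188 and Robo4 at 4.76 ± 0.626 CPM per kb could not be ordered beyond their spread.
In EFAT, Pecam1 had 31.1 ± 5.97 and Kdr 21.6 ± 1.83 CPM per kb, and Apln at 11.7 ± 5.69, Aplnr at 11.0 ± 3.92 and Tek at 10.3 ± 0.656 CPM per kb again overlapped. Flt1 at 8.14 ± 0.351 and Robo4 at 8.11 ± 1.06 CPM per kb differed by less than 1 SD, and Emcn was lowest at 5.69 ± 0.930.
In SFAT the order of the means was Pecam1 at 28.4 ± 3.77, Kdr at 20.0 ± 2.69, Tek at 15.3 ± 1.35, Aplnr at 10.8 ± 2.37, Flt1 at 8.86 ± 1.33, Robo4 at 7.05 ± 0.509, Emcn at 5.77 ± 1.42 and Apln at 4.66 ± 1.95 CPM per kb. Aplnr differed from Flt1, and Emcn from Robo4 and from Apln, by less than the larger SD of the pair. The order within these pairs is therefore not firm.

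BAT differed from the white depots in the ligand and both of its receptors. Relative to SFAT, 3 members were higher in BAT and 5 lower, and relative to EFAT 3 were higher and 4 lower, against 53% (25.9% higher and 27.1% lower) and 60% (26.9% higher and 33.1% lower) of all 18348 genes called in these comparisons. Vegfa was higher in BAT by 0.73 ± 0.16 against SFAT and by 1.03 ± 0.17 against EFAT on the log2 scale (adjusted p = 0.000263 and 1.46e-06). Kdr was higher by 0.50 ± 0.15 and 0.39 ± 0.15 (adjusted p = 0.00466 and 0.0236), and Flt1 by 0.53 ± 0.13 and 0.66 ± 0.13 (adjusted p = 0.000941 and 6.69e-05). The libraries of BAT did not overlap those of either white depot for Vegfa, Kdr or Flt1.

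Pecam1, Robo4, Apln and Aplnr were lower in BAT than in both white depots. The differences for Pecam1 were -0.40 ± 0.12 and -0.53 ± 0.12, and for Robo4 -0.56 ± 0.16 and -0.77 ± 0.16, against SFAT and EFAT in turn (adjusted p = 0.00540, 0.000295, 0.00358 and 0.000111). Aplnr differed by -0.95 ± 0.35 and -0.98 ± 0.35 (adjusted p = 0.0203 and 0.0146). Apln stood furthest apart, by 4.97 times against SFAT and 12.5 times against EFAT (adjusted p = 0.00163 and 5.99e-06). Tek was lower in BAT than in SFAT by 0.43 ± 0.14 (adjusted p = 0.00739). Between SFAT and EFAT only Tek passed, higher in SFAT by 0.56 ± 0.14 (adjusted p = 0.00337), where 15.2% of all genes were called (5.66% higher and 9.57% lower). Some of these calls were lost in other settings. The Kdr difference from EFAT did not pass without number 3 (adjusted p = 0.121), without number 4 (0.179) or with no low-count filter (0.0761). The Aplnr difference from SFAT did not pass without number 4 (0.0937), nor that from EFAT without number 2 (0.0765) or number 4 (0.0655), nor the Pecam1 difference from SFAT without number 4 (0.0700). The other depot calls passed in all 10 alternatives.

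The diet was the main contrast in Cth-/- mice, and it is set here beside the same diet in Cth+/+ mice. The apelin receptor fell in all 3 depots of Cth-/- mice, and apelin itself fell in EFAT. Flt1 rose in all 3 depots, and Vegfa rose in SFAT and EFAT. Pecam1 and Emcn rose in EFAT and Robo4 in BAT, while Cdh5, Kdr and Tek passed in none. In BAT 2 members rose and 1 fell, where 18% of 14528 genes were called (7.81% higher and 10.2% lower). In SFAT 2 rose and 1 fell, where 25.4% of 16555 genes were called (11.8% higher and 13.6% lower), and in EFAT 4 rose and 2 fell, where 28.8% of 17248 genes were called (14.5% higher and 14.3% lower). The median change of the 10 members was near that of all genes, at 0.00 against -0.01 in BAT, 0.14 against 0.03 in SFAT and 0.19 against 0.07 in EFAT (log2).

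In Cth+/+ mice none of the 10 members passed for the diet in any depot in the edgeR fit of all 16 libraries in 4 groups, where 0.0826%, 0.0664% and 0% of all genes did in BAT, SFAT and EFAT. At an unadjusted p under 0.05 there were 3 members in EFAT, 1 in SFAT and 4 in BAT. Of all genes, 678 of 17248, 2310 of 16555 and 1424 of 14528 in turn reached that level. DESeq2 called 1 member in BAT (Kdr), 1 in SFAT (Vegfa) and 0 in EFAT. With the library set as a term edgeR also called Kdr in BAT (-0.48, adjusted p = 0.0312), and within set B it called Aplnr there. The genotype on the control diet likewise gave no called member in any depot in that fit, against 2.1%, 0.103% and 0.0464% of all genes in BAT, SFAT and EFAT. At an unadjusted p under 0.05 there were 2, 3 and 3 members in turn, against 2660 of 14528, 1825 of 16555 and 1070 of 17248 genes. DESeq2 called 0 members in each depot. Within set A alone, edgeR called a genotype difference under CTRL for Pecam1, Apln and Aplnr in BAT and for Apln in SFAT.

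**Figure D1:**
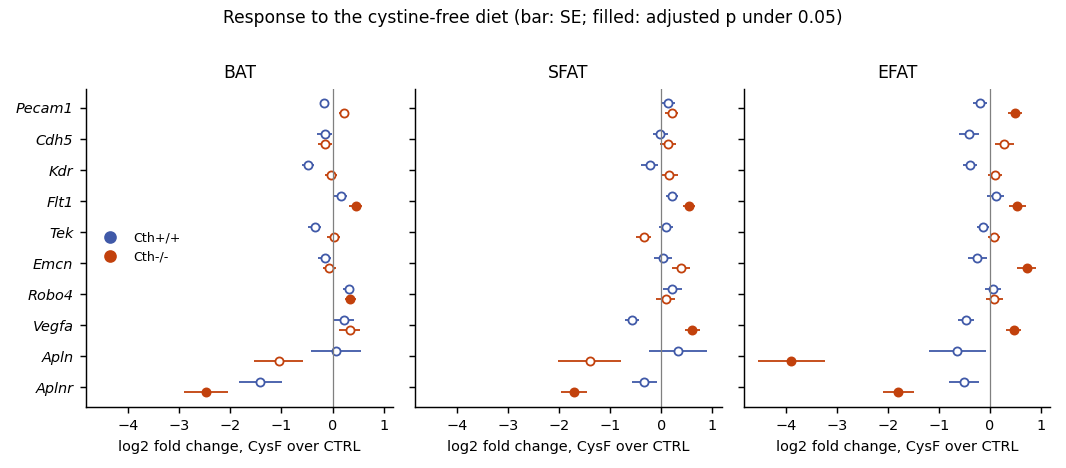
Response of each member to the cystine-free diet in 3 depots, as log2 fold change of CysF over CTRL (horizontal axis) with its SE as a bar, in Cth+/+ mice (blue) and Cth-/- mice (red); filled points have an adjusted p under 0.05. Aplnr lies to the left of 0 in every panel for Cth-/- mice, at -2.48, -1.72 and -1.80, Flt1 lies to the right at 0.45, 0.55 and 0.53, and no blue point is filled.

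Apelin is taken first. In EFAT, Apln in the 4 Cth-/- CTRL libraries was 44.1, 9.96, 18.5 and 9.30 CPM, and in the 4 Cth-/- CysF libraries it was 1.48, 1.53, 1.38 and 1.12 CPM. The lowest control library was thus several times the highest library on the cystine-free diet, which rested on 24 to 44 reads each. The fitted change was a fall of 14.8 times (log2 -3.89 ± 0.67, adjusted p = 0.00103). Within set A, which holds 1 library of the cystine-free group, the change was -4.06 and did not pass (adjusted p = 0.303), and within set B it was -2.84 (0.0340).
In Cth+/+ mice the same depot had 58.9, 78.6, 25.5 and 36.4 CPM on the control diet and 12.9, 54.7, 11.3 and 48.7 CPM on the cystine-free diet. Those groups overlapped, and the difference was -0.64 ± 0.56 (adjusted p = 1.00). The genotype by diet interaction, which tests whether the diet response differs between genotypes, passed at -3.25 ± 0.85 (adjusted p = 0.0296, where 10.4% of genes were called, 5.04% higher and 5.35% lower), but did so in only 12 of 24 alternatives and not, for example, in those without number 3, 4, 8, 11, 12, 14, 17, 18 or 20 (0.0506 to 0.0680).

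In SFAT, Apln was 11.7, 5.02, 6.02 and 4.88 CPM in Cth-/- CTRL and 1.64, 4.06, 1.71 and 3.12 CPM in Cth-/- CysF. The groups did not overlap, but the difference of -1.40 ± 0.62 did not pass (adjusted p = 0.110). It passed in 1 of 17 alternatives, the edgeR fit of only the 2 groups compared (adjusted p = 0.0268). Cth+/+ CTRL libraries held 28.4, 18.7, 10.9 and 14.6 CPM, and Cth+/+ CysF libraries split into 2 high values, 45.5 and 33.7 CPM (numbers 8 and 11, set A), and 2 low values, 6.22 and 5.52 CPM (numbers 7 and 10, set B). On the cystine-free diet Apln was lower in Cth-/- than in Cth+/+ mice by 8.72 times in SFAT (log2 -3.12 ± 0.64, adjusted p = 0.00139) and by 23.1 times in EFAT (log2 -4.53 ± 0.68, adjusted p = 0.000270). These genotype comparisons share the Cth-/- CysF libraries with the diet comparison and are not independent of it. Within set B the SFAT difference was -0.95 and did not pass (adjusted p = 0.170), and within set A, which holds 1 Cth-/- CysF library in EFAT, the EFAT difference was -4.47 and did not pass (0.203).

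BAT held little Apln in any group. The values were 3.77, 1.45, 0.837 and 0.839 CPM in Cth+/+ CTRL, 1.20, 2.04, 2.49 and 1.54 CPM in Cth+/+ CysF, 1.21, 2.59, 4.99 and 2.74 CPM in Cth-/- CTRL and 0.980, 1.10, 1.32 and 2.30 CPM in Cth-/- CysF. All groups overlapped, and the diet difference in Cth-/- mice was -1.06 ± 0.48 (adjusted p = 0.144). That difference passed in 1 of 18 alternatives, the edgeR fit within set A (adjusted p = 0.0169). The fall of Apln in EFAT was larger than that in BAT, by -2.86 ± 0.89 on the log2 scale (adjusted p = 0.0255, where 16.2% of genes were called, 7.29% higher and 8.93% lower). That difference did not pass without number 12, 17, 18 or 20 (0.0555 to 0.181). Against SFAT the difference of -2.53 ± 0.87 did not pass (adjusted p = 0.0810, where 4.38% were called), but passed with the replicate block (-2.32, adjusted p = 0.0177) and with DESeq2 (0.0330).

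**Figure D2:**
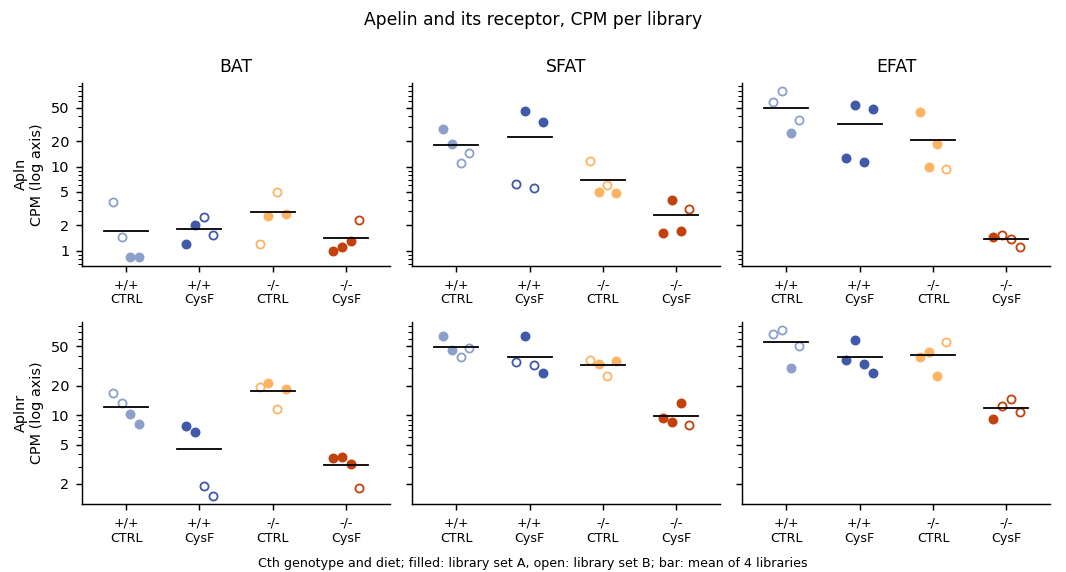
Apln (top) and Aplnr (bottom) in each library by depot, genotype and diet, in CPM on log axes; filled points are set A, open points set B, and bars are means of 4 libraries. The Cth-/- CysF libraries lie lowest for both genes in SFAT and EFAT. In BAT the Cth-/- CysF libraries lie below the Cth-/- CTRL libraries for Aplnr. CPM are scaled within the depot, so heights can be compared within a depot only.

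The receptor gene Aplnr fell in every depot of Cth-/- mice. In BAT it was 19.3, 21.1, 11.6 and 18.4 CPM on the control diet and 3.70, 3.74, 3.15 and 1.80 CPM on the cystine-free diet, without overlap, a fall of 5.58 times (log2 -2.48 ± 0.43, adjusted p = 0.00140). In SFAT the values were 36.2, 33.2, 24.9 and 35.9 CPM against 9.40, 8.60, 13.4 and 8.00 CPM, again without overlap, a fall of 3.29 times (log2 -1.72 ± 0.26, adjusted p = 0.000292). In EFAT they were 39.1, 43.9, 25.2 and 55.0 CPM against 9.23, 12.5, 14.5 and 10.8 CPM, also without overlap, a fall of 3.47 times (log2 -1.80 ± 0.31, adjusted p = 0.00104). Aplnr passed in BAT in 18 of 18 alternatives, in SFAT in 17 of 17 and in EFAT in 16 of 17, where the fit within set A did not (-1.98, adjusted p = 0.190). The size of the fall did not differ between depots by the test of that difference, with log2 differences of 0.75 for SFAT against BAT (adjusted p = 0.532), 0.62 for EFAT against BAT (0.420) and -0.13 for EFAT against SFAT (0.912). No member's response differed between SFAT and BAT, where 2.16% of genes were called. No member had an unadjusted p under 0.05 there, against 2657 of all 18348 genes.

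In Cth+/+ mice Aplnr showed the same order in BAT without passing. The libraries held 16.8, 13.4, 10.2 and 8.07 CPM on the control diet and 7.81, 6.80, 1.88 and 1.5 CPM on the cystine-free diet. They did not overlap, with a difference of -1.41 ± 0.42 (adjusted p = 0.229). The 2 lowest were the set B libraries 10 and 11. Within set B the difference was -3.18 (adjusted p = 0.0339) and within set A -0.31 (0.722), so the diet difference of Cth+/+ mice in BAT rested on the set B libraries, and the genotype by diet interaction there did not pass (-1.07, adjusted p = 0.308). No member passed the interaction in BAT in the edgeR fit of all 16 libraries, where 6.42% of genes were called. At an unadjusted p under 0.05 there were 2 members, and 3226 of all 14528 genes. DESeq2 called 1, Pecam1 (adjusted p = 0.0394). With the library set as a term edgeR called 1, Kdr (adjusted p = 0.0498), and within set A it called 4, Flt1, Vegfa, Apln and Aplnr.
In the white depots the Cth+/+ groups overlapped. SFAT held 64.3, 45.9, 38.8 and 48.7 CPM against 34.6, 63.6, 32.1 and 26.6 CPM, and EFAT 67.7, 73.3, 30.4 and 50.3 CPM against 36.7, 58.6, 33.1 and 26.8 CPM. The interaction passed in SFAT at -1.39 ± 0.35 (adjusted p = 0.0116, where 21.7% of genes were called, 9.39% higher and 12.4% lower) and missed in EFAT at -1.28 (0.0640). On the cystine-free diet Aplnr was lower in Cth-/- than in Cth+/+ mice by 3.96 times in SFAT and 3.30 times in EFAT (adjusted p = 3.77e-05 and 0.000818), and in BAT the difference of -0.53 did not pass (0.383).

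The fall of Aplnr was also set against the level of endothelial genes at large. Relative to the mean log2 CPM of 29 other pan-endothelial genes, Aplnr went from -0.07 ± 0.29 to -2.69 ± 0.45 in BAT, from -0.13 ± 0.22 to -1.97 ± 0.22 in SFAT and from -0.04 ± 0.47 to -1.96 ± 0.20 in EFAT of Cth-/- mice (log2 ratio, SD, n = 4). The libraries of the 2 diets did not overlap on this ratio in any depot. The reference itself moved from 4.18 ± 0.10 to 4.29 ± 0.05 in BAT, from 5.14 ± 0.11 to 5.25 ± 0.12 in SFAT and from 5.34 ± 0.09 to 5.50 ± 0.14 in EFAT (mean log2 CPM, SD, n = 4). In bulk tissue, fewer cells that carry a transcript and less of it per cell cannot be told apart.

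Of the other apelin pathway genes on the list (Apela, Gna13, Klf2, Klf4, Mef2a and Mef2c), 1 of 6 tested rose in BAT, 1 of 5 fell in SFAT and 1 of 5 rose in EFAT. Klf4, a flow-responsive transcription factor, rose in BAT by 0.95 ± 0.28 (adjusted p = 0.0302). Mef2c, a transcription factor of muscle and endothelium, fell in SFAT by 0.60 ± 0.17 (adjusted p = 0.0186), and its relative Mef2a rose in EFAT by 0.40 ± 0.13 (adjusted p = 0.0317). The medians of these genes without the members were 0.12, 0.00 and 0.24 in BAT, SFAT and EFAT.

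In some groups, Apln values of libraries with the same number went together in the white depots. Numbers 8 and 11 were the high Cth+/+ CysF libraries in both SFAT and EFAT, and numbers 7 and 10 the low ones. In EFAT all 4 of them were in set A. Number 12 was the highest Cth-/- CTRL library in both depots, at 11.7 CPM in SFAT and 44.1 CPM in EFAT. BAT did not share this order, since number 12 was there the lowest of its group at 1.21 CPM. In Cth+/+ CTRL the highest library was number 1 in SFAT and number 2 in EFAT, and number 3 was lowest in both. In Cth-/- CysF number 20 was lowest in EFAT but lay above numbers 16 and 18 in SFAT. The labels do not say that a number stands for 1 mouse.

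**Figure D3:**
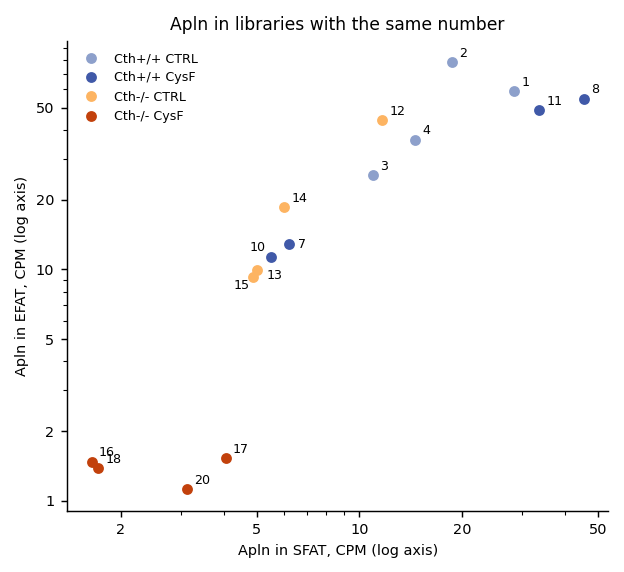
Apln in SFAT (horizontal) against EFAT (vertical) for the 16 library numbers, in CPM on log axes, coloured by genotype and diet. Within Cth+/+ CysF, numbers 8 and 11 lie at 45.5 and 33.7 CPM in SFAT and 54.7 and 48.7 CPM in EFAT, and numbers 7 and 10 under 13 CPM in both; the 4 Cth-/- CysF libraries lie at 1.12 to 1.53 CPM in EFAT.

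The VEGF-A ligand rose after the diet in the white depots of Cth-/- mice. In SFAT, Vegfa was 297, 209, 268 and 249 CPM in Cth-/- CTRL and 338, 345, 388 and 492 CPM in Cth-/- CysF, without overlap. The rise was 1.53 times (log2 0.61 ± 0.14, adjusted p = 0.00577) and passed in 17 of 17 alternatives. In Cth+/+ mice of that depot Vegfa was 268, 239, 336 and 259 CPM on the control diet and 197, 180, 170 and 192 CPM on the cystine-free diet, lower without overlap but not past the test (-0.57 ± 0.14, adjusted p = 0.113).
The interaction in SFAT was 1.18 ± 0.20 (adjusted p = 0.00117) and passed in 25 of 25 alternatives. On the cystine-free diet Vegfa was 2.11 times higher in Cth-/- than in Cth+/+ SFAT (log2 1.08 ± 0.14, adjusted p = 4.62e-05).

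In EFAT the pattern was similar and less firm. Vegfa was 274, 196, 216 and 194 CPM in Cth-/- CTRL and 262, 288, 302 and 358 CPM in Cth-/- CysF, and the groups overlapped through number 12 (274 CPM). The rise of 0.46 ± 0.15 passed (adjusted p = 0.0318) but did so in only 2 of 17 alternatives; DESeq2 gave an adjusted p of 0.0570, RLE scaling 0.0634 and a fit that adds the library set 0.0810. Cth+/+ mice had 252, 285, 250 and 196 CPM on the control diet and 167, 149, 181 and 213 CPM on the cystine-free diet (-0.47, adjusted p = 1.00).
The interaction passed at 0.93 ± 0.21 (adjusted p = 0.0171), though not without number 8 (0.0554) or with the set as a term (0.199). It did not pass within set A either, which holds 1 library of Cth-/- CysF and 1 of Cth+/+ CTRL and so cannot decide it. The genotype difference on the cystine-free diet was 1.71 times (log2 0.77 ± 0.15, adjusted p = 0.00140), with no overlap, and did not pass within set A (0.311).
In BAT the groups of Cth-/- mice overlapped, at 273, 201, 229 and 202 CPM against 262, 244, 273 and 363 CPM (0.34, adjusted p = 0.268). That BAT difference passed in 1 of 18 alternatives, the edgeR fit within set A (adjusted p = 0.0243).

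The trap receptor gene Flt1 rose with the diet in all 3 depots of Cth-/- mice, by similar amounts and without overlap. In BAT it was 143, 119, 124 and 113 CPM against 165, 172, 162 and 182 CPM (0.45 ± 0.13, adjusted p = 0.0216). In SFAT it was 164, 128, 175 and 158 CPM against 232, 237, 212 and 233 CPM (0.55 ± 0.12, adjusted p = 0.00368). In EFAT it was 157, 135, 148 and 133 CPM against 199, 260, 191 and 180 CPM (0.53 ± 0.17, adjusted p = 0.0301). The SFAT call was lost only within set B (adjusted p = 0.0546). The BAT call was lost without number 14, 15, 17 or 20 (adjusted p 0.0522 to 0.0554). It was also lost with a muscle score as a covariate, without numbers 8 and 17 together, and within set B, which holds only number 20 of Cth-/- CysF. The EFAT call was lost when any 1 of numbers 12 to 18 was left out (adjusted p 0.0536 to 0.105) and with the set as a term (0.0762).

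Flt1 in Cth+/+ mice was 97.9, 99.5, 108 and 101 CPM against 90.1, 107, 150 and 107 CPM in BAT, 139, 121, 161 and 172 CPM against 157, 166, 173 and 189 CPM in SFAT, and 151, 155, 144 and 148 CPM against 138, 132, 239 and 136 CPM in EFAT. These groups overlapped in each depot, with differences of 0.16, 0.21 and 0.11. The interaction for Flt1 was 0.29, 0.34 and 0.42 and passed in none (adjusted p = 0.363, 0.164 and 0.252), so the rise is not shown to differ between the genotypes. On the cystine-free diet Flt1 was higher in Cth-/- than in Cth+/+ BAT by 0.59 ± 0.13 and SFAT by 0.42 ± 0.12 (adjusted p = 0.00232 and 0.0116).

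The signalling receptor gene Kdr did not pass for the diet in either genotype. In BAT of Cth+/+ mice the libraries nevertheless did not overlap, at 146, 133, 155 and 165 CPM on the control diet and 106, 128, 95.1 and 101 CPM on the cystine-free diet (-0.48 ± 0.12, adjusted p = 0.133), and DESeq2 called this difference (adjusted p = 0.0140). In BAT of Cth-/- mice they were 153, 174, 133 and 166 CPM against 176, 149, 148 and 140 CPM (-0.03 ± 0.12). Among mice on the cystine-free diet Kdr was higher in Cth-/- BAT by 0.51 ± 0.12 (adjusted p = 0.00324, where 31.6% of genes were called). In the white depots Kdr of Cth-/- mice ranged from 179 to 264 CPM in SFAT and from 186 to 273 CPM in EFAT over both diets, with changes of 0.16 and 0.10.

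**Figure D4:**
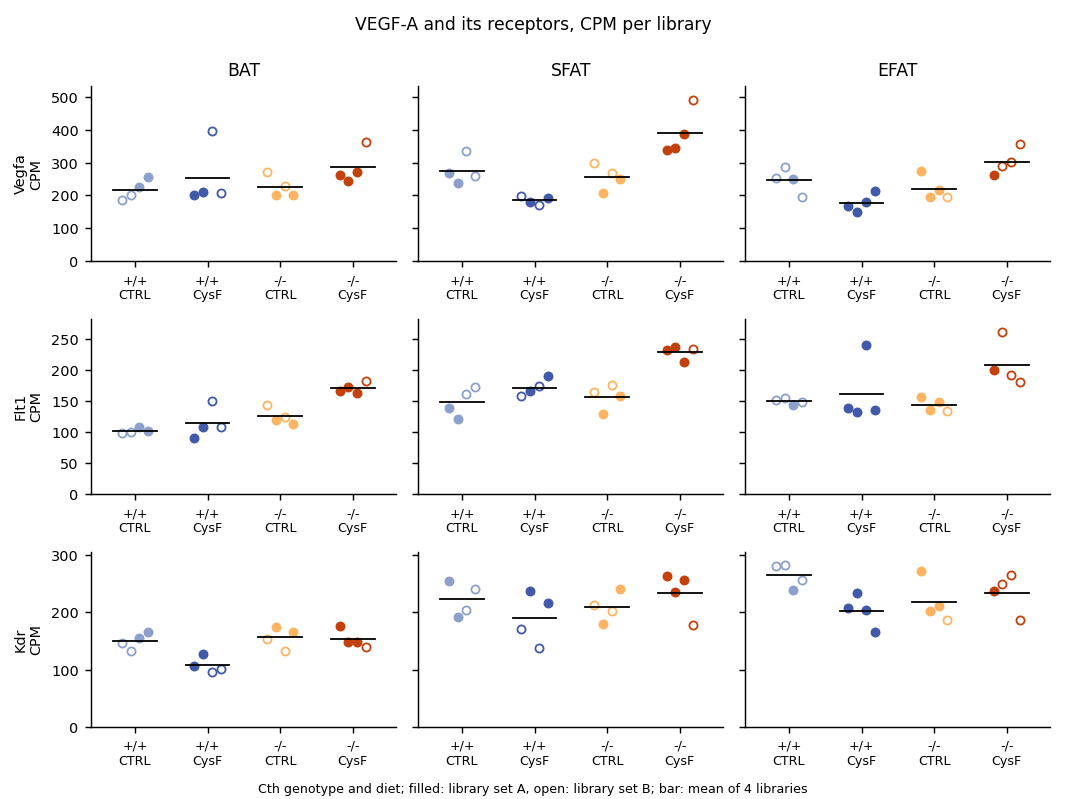
Vegfa, Flt1 and Kdr in each library by depot, genotype and diet, in CPM on axes that start at 0; filled points are set A, open points set B, and bars are means of 4 libraries. Vegfa in SFAT spans 338 to 492 CPM in Cth-/- CysF and 170 to 197 CPM in Cth+/+ CysF. Flt1 of Cth-/- CysF lies above that of Cth-/- CTRL in every depot. CPM are scaled within the depot, so heights can be compared within a depot only.

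Of the other VEGF ligands and receptors, the diet in Cth-/- mice lowered 2 of 6 tested in EFAT, 3 of 6 in SFAT and 1 of 6 in BAT, and none rose. Nrp2, a VEGF co-receptor of veins and lymphatics, fell in BAT by 0.80 ± 0.11 (adjusted p = 0.000218) and in SFAT by 0.47 ± 0.12 (0.0117). Vegfc, the ligand of lymphatic growth, fell in SFAT by 1.09 ± 0.24 (adjusted p = 0.00394), and Pgf, the placental growth factor that Flt1 binds, fell there by 1.07 ± 0.36 (0.0400). In EFAT, Vegfb fell by 0.38 ± 0.12 (adjusted p = 0.0267) and the co-receptor Nrp1 by 0.28 ± 0.10 (0.0497). The medians over these 6 were -0.49, -0.38 and -0.34 for BAT, SFAT and EFAT in turn, against -0.01, 0.03 and 0.07 over all genes. The rise of Vegfa and Flt1 was thus not shared by any other listed VEGF gene that passed.

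Among hypoxia target genes, of which Vegfa is one, 6 of 23 others rose and 1 fell in BAT, 7 of 24 rose and 3 fell in SFAT, and 5 of 24 rose and 8 fell in EFAT. Bnip3, a mitophagy receptor, rose by 1.46 ± 0.28 in BAT and 1.38 ± 0.14 in SFAT (adjusted p = 0.00298 and 1.33e-05). Egln3, an oxygen-sensing prolyl hydroxylase, rose in SFAT by 1.33 ± 0.22 (adjusted p = 0.000596). Pfkfb4, a regulator of glycolysis, fell in all 3 depots, at -0.88 ± 0.25, -1.35 ± 0.24 and -1.50 ± 0.24 (adjusted p = 0.0231, 0.00123 and 0.000650), and lactate dehydrogenase A, Ldha, fell in EFAT by 1.41 ± 0.35 (0.00945). The list thus moved in both directions. Ppargc1a, a coactivator on the list of VEGF and endothelial transcription regulators, rose in SFAT by 1.35 ± 0.23 and in EFAT by 1.58 ± 0.36 (adjusted p = 0.000712 and 0.00603). The changes of that list as a whole are not given here. Whether hypoxia or Ppargc1a had a part in the rise of Vegfa was not tested.

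The junction and surface markers come next. Pecam1 passed in EFAT of Cth-/- mice, where the libraries held 224, 221, 202 and 231 CPM on the control diet and 262, 342, 334 and 299 CPM on the cystine-free diet, without overlap (0.49 ± 0.14, adjusted p = 0.0179). The call was lost without number 14, 17 or 18 (adjusted p 0.0548 to 0.0721) and when the library set was added to the fit (0.0893). In Cth+/+ EFAT Pecam1 was 279, 310, 196 and 267 CPM against 186, 266, 246 and 219 CPM, and the interaction of 0.69 ± 0.20 passed (adjusted p = 0.0409) but in only 8 of 24 alternatives. Pecam1 was also higher in Cth-/- than in Cth+/+ mice on the cystine-free diet in BAT, at 107, 107, 99.8 and 115 CPM against 67.5, 73.4, 77.6 and 63.3 CPM, without overlap (0.61 ± 0.09, adjusted p = 0.000220).

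That last contrast took in several markers. In BAT on the cystine-free diet 5 of the 10 members were higher in Cth-/- than in Cth+/+ mice and none lower, where 31.6% of all genes were called (14.5% higher and 17.1% lower). Beside Pecam1, Kdr and Flt1 they were Tek (0.48 ± 0.13, adjusted p = 0.00931) and Emcn (0.36 ± 0.13, adjusted p = 0.0487). Tek was 33.6, 33.9, 35.5 and 34.2 CPM against 26.2, 28.8, 20.7 and 22.3 CPM, without overlap. Of 29 other pan-endothelial genes 12 were higher and 2 lower in that contrast (median 0.43). Skeletal muscle genes had a summed level of 3.11 to 145 CPM in the Cth-/- and 182 to 3722 CPM in the Cth+/+ libraries of it, and with a muscle score as a covariate 2 of the 10 members passed, Pecam1 and Kdr, while Flt1, Tek and Emcn did not. Within set B none of the 5 passed. Emcn passed in only 7 of 18 alternatives and was lost when any 1 of numbers 7, 8, 11, 16, 17 and 20 was left out. In SFAT on that diet 2 members were higher and 2 lower, where 37.5% were called (18.1% higher and 19.4% lower), and in EFAT 3 were higher and 2 lower, where 39.7% were (20.1% higher and 19.6% lower).

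Emcn, a sialomucin of capillaries and veins, differed between the library sets in some groups. All set B libraries lay above all set A libraries of their group in Cth+/+ CTRL and Cth-/- CysF of both white depots, in EFAT Cth-/- CTRL and in BAT Cth-/- CysF, but not in the other groups with both sets. In BAT Cth-/- CTRL the lowest library, at 14.9 CPM, was number 14 of set B. In EFAT of Cth-/- mice it was 31.0, 29.7, 29.0 and 33.1 CPM on the control diet and 29.7, 67.5, 49.1 and 56.3 CPM on the cystine-free diet, a rise of 0.72 ± 0.19 (adjusted p = 0.0124). The 3 high libraries (numbers 17, 18 and 20) were those of set B, and the library at 29.7 CPM was the 1 of set A. Within set A the change was -0.033, within set B, which holds 1 control library, it was 0.74 (adjusted p = 0.139), and with the set as a term it was 0.41 (adjusted p = 0.0779). The interaction of 0.97 ± 0.27 (adjusted p = 0.0355) was -0.19 within set A, and the larger response in EFAT than in BAT (0.72 ± 0.24, adjusted p = 0.0329) did not pass with the set as a term (0.0903). In SFAT, Emcn of Cth-/- CysF libraries was 31.7, 33.2 and 36.3 CPM in set A and 54.5 CPM in set B, and the change of 0.39 did not pass (adjusted p = 0.114). Over 17 alternatives this SFAT change ran from 0.19 to 0.86. It passed with the library set as a term and within set B, where Cth-/- CysF had only number 20.

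Cdh5 overlapped between diets in every depot of Cth-/- mice. It was 195, 150, 142 and 159 CPM against 134, 136, 153 and 161 CPM in BAT, 269, 204, 251 and 261 CPM against 264, 237, 280 and 298 CPM in SFAT, and 312, 291, 245 and 330 CPM against 292, 403, 381 and 354 CPM in EFAT. The changes were -0.14 ± 0.14, 0.13 ± 0.15 and 0.28 ± 0.19 (adjusted p = 0.519, 0.568 and 0.283). Tek, the angiopoietin receptor, differed by 0.02, -0.35 and 0.08, with SFAT at 89.2, 108, 80.5 and 115 CPM against 78.8, 71.6, 91.7 and 66.1 CPM (adjusted p = 0.0828), a difference that passed without number 14 (0.0378) or 18 (0.0403). Robo4 rose in BAT, from 16.7, 16.1, 17.2 and 16.0 CPM to 22.4, 22.0, 20.2 and 19.1 CPM, without overlap (0.34 ± 0.11, adjusted p = 0.0372), but passed in only 7 of 18 alternatives and was lost when any of numbers 12 to 18 was left out (0.0607 to 0.0986). Its changes in SFAT and EFAT were 0.08 and 0.08.

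**Figure D5:**
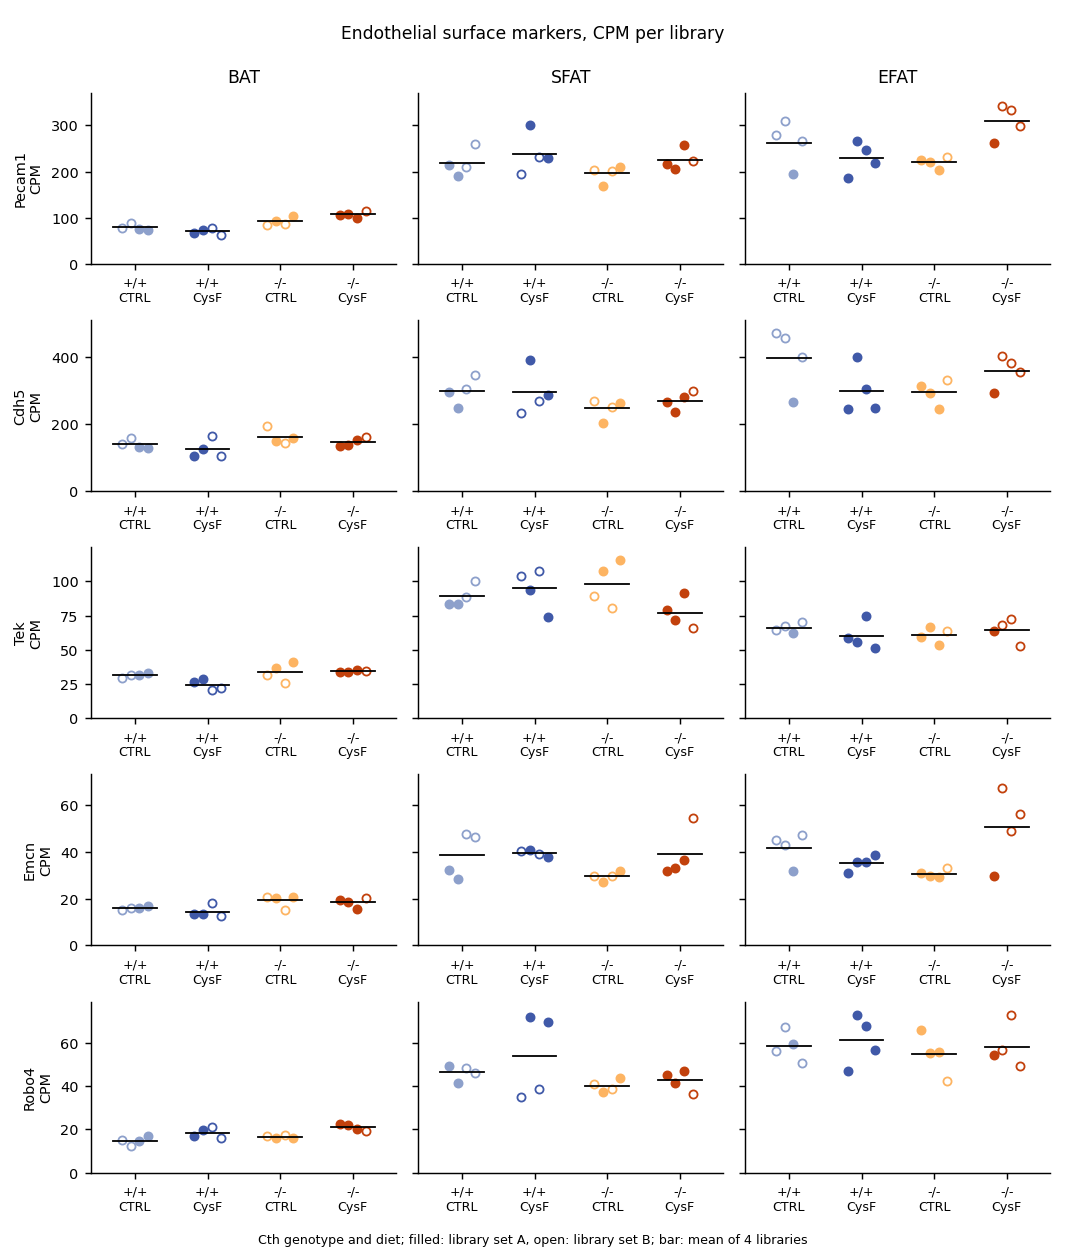
Pecam1, Cdh5, Tek, Emcn and Robo4 in each library by depot, genotype and diet, in CPM on axes that start at 0; filled points are set A, open points set B, and bars are means of 4 libraries. In EFAT of Cth-/- CysF the open Emcn points lie at 49.1 to 67.5 CPM and the filled one at 29.7 CPM. CPM are scaled within the depot, so heights can be compared within a depot only.

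The remaining endothelial lists moved unevenly in Cth-/- mice on the cystine-free diet. Of 29 other pan-endothelial genes 2 rose and 3 fell in BAT, 5 rose and 2 fell in SFAT, and 6 rose and 2 fell in EFAT, with medians of 0.18, 0.16 and 0.11. Cyyr1 rose in SFAT by 0.72 ± 0.12 and in EFAT by 0.91 ± 0.11 (adjusted p = 0.000837 and 7.53e-05), S1pr1, the sphingosine phosphate receptor of endothelium, rose in SFAT by 0.62 ± 0.21 and in EFAT by 0.89 ± 0.19 (0.0435 and 0.00361), and Nos3, the endothelial nitric oxide synthase, fell in EFAT by 1.05 ± 0.24 (0.00586). Among capillary and lipid uptake genes 8 of 17 rose and 1 fell in BAT, 5 of 17 rose in SFAT, and 5 of 17 rose and 4 fell in EFAT. Car4, a carbonic anhydrase of capillaries, rose in all 3 depots by 0.96 ± 0.13, 0.99 ± 0.22 and 1.29 ± 0.18 (adjusted p = 0.000178, 0.00506 and 0.000258). The kinase gene Sgk1, also on that list, rose by 1.28 ± 0.36, 1.19 ± 0.26 and 1.43 ± 0.16 (0.0224, 0.00369 and 5.08e-05).

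Tip cell and sprouting genes moved in both directions. Without Apln, 3 of 19 rose and 7 fell in BAT, 1 of 20 rose and 7 fell in SFAT, and 2 of 21 rose and 10 fell in EFAT, with medians of -0.60, -0.47 and -0.51. Nid2, a basement membrane protein also made by fibroblasts, fell in all 3 depots, at -1.15 ± 0.19, -2.05 ± 0.34 and -2.14 ± 0.27 in BAT, SFAT and EFAT (adjusted p = 0.000858, 0.000641 and 0.000112). Esm1, a tip cell marker, fell in SFAT by 1.68 ± 0.44 and in EFAT by 1.47 ± 0.49 (adjusted p = 0.0108 and 0.0370). Igfbp3, which binds insulin-like growth factors, rose in all 3 depots by 2.00 ± 0.21, 2.64 ± 0.22 and 1.63 ± 0.19 (adjusted p = 2.65e-05, 3.63e-06 and 6.84e-05).
Angpt2, the ligand that antagonises Tek signalling and destabilises vessels, fell in all 3 depots, at -0.88 ± 0.28, -0.64 ± 0.19 and -0.71 ± 0.25 (adjusted p = 0.0389, 0.0230 and 0.0423). No gene of the angiopoietin and Tie list rose. Without Tek, which passed in no depot, 3 of 7, 3 of 8 and 2 of 8 fell in BAT, SFAT and EFAT. Of the other angiogenic ligands and inhibitors 9 of 21 fell and 1 rose in BAT, 10 of 22 fell and 1 rose in SFAT, and 8 of 23 fell and 3 rose in EFAT. The falls were led by the collagen gene Col15a1 at -2.78 ± 0.18, -2.83 ± 0.32 and -4.06 ± 0.35 (adjusted p = 3.43e-07, 3.40e-05 and 8.54e-06). The angiogenesis inhibitor Thbs2 rose in EFAT by 3.59 ± 0.35 (adjusted p = 2.43e-05).

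Markers of other cells moved in the same comparison. Fibroblast and progenitor genes fell for 11 of 12 in SFAT, 10 of 12 in BAT and 8 of 12 in EFAT, where 1 rose. Their summed level was 509 to 623 CPM on the control and 188 to 225 CPM on the cystine-free diet in BAT of Cth-/- mice, 6996 to 16510 against 1951 to 2596 CPM in SFAT, and 4592 to 5316 against 2964 to 3320 CPM in EFAT. Macrophage genes fell for 9 of 13 in EFAT, 9 of 13 in SFAT and 10 of 12 in BAT. Their summed level in EFAT went from 1253 to 1413 CPM to 691 to 969 CPM. Muscle genes fell in BAT for 9 of 12, from 95.9 to 904 CPM to 3.11 to 145 CPM, and epithelial genes rose in EFAT for 3 of 9, from 9.86 to 190 CPM to 119 to 715 CPM. The part of these cell types in the changes of the 10 members was not tested, other than by the muscle covariate in BAT, under which Aplnr still passed and Flt1 (adjusted p = 0.144) and Robo4 (0.232) did not. In BAT the epithelial list was near 0, with a sum of at most 0.643 CPM in any library.

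Members varied together to different degrees. The correlations that follow are over 48 libraries that share groups and depth, after the depot mean was removed from log2 CPM (prior count 2), and are given as a description. Pecam1 and Cdh5 had the highest r of the member pairs, 0.73, and 0.81 with the group means removed as well. Pecam1 and Emcn had r = 0.68 and 0.50. Apln and Aplnr had r = 0.61, which fell to 0.10 once group means were removed. Flt1 and Aplnr had r = -0.64 and -0.32, and Vegfa and Aplnr -0.60 and -0.43. Kdr and Robo4 had r = 0.31, and 0.68 with group means removed.

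The genes most like a member over the same libraries, among 14123 genes tested in all depots, were ranked by r. Those nearest Pecam1 were Ablim3 (r = 0.81), Ece1 (0.77) and Clec1a (0.76), and 5 of its 20 nearest were other members or pan-endothelial genes. Of the 20 nearest, Kdr had 5 such genes, Cdh5 4, Robo4 3, Emcn 2, Flt1 1 and Tek 0. Vegfa was nearest to Fmo1 (0.79), Brd2 (0.77) and Kxd1 (0.77), with none of 20. Aplnr was nearest to Fam198b (0.85), Arhgap18 (0.83) and Marcks (0.82), with 1 of 20, and Apln had none of 20.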

How the data were processed

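Poly(A) RNA-seq of 48 libraries (3 depots, 2 genotypes, 2 diets, 4 libraries a group, 6 days of diet) was used as the deposited table of RSEM expected counts for 47729 genes, unscaled, per the labels. Per the submitters' processing notes, FastQC, STAR, Picard and RSEM were used with the build mm10; tool versions and annotation: not given in the sources used here. In each library 5.31 to 8.16% of values were not whole, and counts were rounded. Without version suffix 47310 IDs matched GENCODE M21.

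All genes of a depot were tested in 1 fit of its 16 libraries in 4 groups (edgeR 4.0.16 quasi-likelihood F-test, limma 3.58.1, R 4.3.3, TMM scaling, filterByExpr with a minimum count of 10 and total of 15), and depot differences in a fit of all 48 in 12 groups. All 10 members passed the filter in every fit. P-values are two-sided and Benjamini-Hochberg adjusted over all genes tested, with a threshold of 0.05. No libraries were found to be deposited more than once. Totals per library were 16.2 to 46.0 M (mega), and the SE of a member's change ranged with its level. CPM per kb used the union of GENCODE exons, not RSEM's effective length. RSEM shares reads between similar genes; the only member that overlaps another annotated gene is Cdh5, on the opposite strand, and strand use in counting was not stated.

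Alternatives were RLE scaling, no low-count filter, DESeq2 1.42.0, mitochondrially encoded genes left out, a fit of only the groups compared or of all 48 libraries, the library set as a term or as separate fits, a muscle score in BAT, each library left out in turn and the library number as a block; leaving out pairs of doubted libraries was added after seeing the data. Python 3.11.15 with pandas 2.3.3 and matplotlib 3.10.9 made tables and plots. The scripts' calls were tested on simulated data. The members and gene lists were chosen with earlier results of these data known. Listed genes were named by rule: up to 4 per list and comparison, past the test, ranked by size of change, if their mean reached 1 CPM; values of Nrp2 in SFAT were added after they were seen. The 3 genes most like Pecam1, Vegfa and Aplnr were named by Pearson r of log2 CPM; those for Apln are not reported here.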

Additional observations from a re-analysis of the deposited data

Results flagged for a closer look

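In 5 of 120 sets of 4 libraries (a member in a group), 1 library stood apart from the other 3 by the gap to its nearest neighbour relative to the range of the group; chance gives about 1 in 20. Number 10 of BAT Cth+/+ CysF stood above its group for Emcn, at 18.2 CPM, and for Vegfa, at 395 CPM, where the other 3 libraries held 200 to 210 CPM. Number 10 of EFAT Cth+/+ CysF stood above its group for Flt1, at 239 CPM against 132 to 138 CPM in the other 3. Number 14 of BAT Cth-/- CTRL stood below its group for Emcn at 14.9 CPM, and number 12 of SFAT Cth-/- CTRL above its group for Apln at 11.7 CPM.

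The diet response differed between the genotypes by the interaction test for Vegfa (1.18) and Aplnr (-1.39) in SFAT, and for Pecam1 (0.69), Emcn (0.97), Vegfa (0.93) and Apln (-3.25) in EFAT (log2). The response of Cth-/- mice differed between EFAT and BAT for Emcn, by 0.72, and for Apln, by -2.86. Of these, only the Vegfa interaction in SFAT passed in every alternative run.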

How the results depend on the processing

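Over 210 member results, 50 of them called, 3530 alternative values were computed: 3321 kept direction and side of the threshold, 165 lost a call, 40 gained one and 4 reversed. Of the 50 called results 19 stayed called in every alternative and 47 kept their sign. The reversals were all of Emcn: 0.41 for the genotype on the cystine-free diet in SFAT within set B, and, in EFAT within set A, -0.033 for the Cth-/- diet response, -0.28 for the genotype under CysF and -0.19 for the interaction. The following counts are of the 10 members called. The numbers of all genes called in the same fits are not given here. The counts alone thus do not show whether members moved apart from genes at large. With DESeq2 they were 1 for the diet in Cth+/+ BAT, 1 for the BAT interaction, 1 for the diet in Cth+/+ SFAT and 1 for EFAT against SFAT, each from 0. With the library set as a term they were 1 for the diet in Cth+/+ BAT and 1 for the BAT interaction, and in EFAT 2 for the Cth-/- diet response, 3 for the genotype under CysF and 0 for the interaction, with 1 for EFAT against BAT. Within set A they were 5 for the diet in Cth-/- BAT, 3 for the genotype on the control diet and 4 for the interaction in BAT, 1 and 1 for the last 2 in SFAT, and 0 in EFAT for each of the Cth-/- diet response, the genotype under CysF and the interaction. Within set B they were 1 and 1 for the diet in Cth-/- and Cth+/+ BAT, 0 for the genotype on the cystine-free diet in BAT and 2 for the diet in Cth-/- EFAT; several groups then held 1 library, assumed to vary like the others, and the EFAT contrasts with Cth+/+ CysF could not be fitted. Without a low-count filter they were in EFAT 3 for the Cth-/- diet response, 3 for the genotype under CysF and 1 for the interaction, and 1 for EFAT against BAT. A fit of only the 2 groups gave 3 for the genotype on the cystine-free diet in EFAT. In BAT the muscle score gave 1 for the diet in Cth-/- mice and 2 for the genotype under CysF. Leaving out numbers 8 and 17, added after seeing the data, gave 1 for that diet response. Leaving out each library in turn gave 1 to 2 for the diet in Cth-/- BAT (3 with all), 3 to 5 for the diet in Cth-/- EFAT (6), 3 to 5 for the genotype on the cystine-free diet in EFAT (5), 0 to 4 for the EFAT interaction (4) and 0 to 2 for EFAT against BAT (2). The cause was not tested.

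Library numbers recur across depots, and after removal of group means 13 of 16 same-numbered pairs correlated above 0.1 for SFAT with EFAT, 11 for SFAT with BAT and 7 for BAT with EFAT (lowest r -0.15, -0.15 and -0.14). The median r was 0.24, 0.25 and 0.04 in turn. Numbers were not used to pair the samples in the main fit, which treats the 48 libraries as separate. These values do not show that the samples were unpaired. A replicate block gave 2 called members for SFAT against EFAT levels (1 without it) and 1 for the EFAT against SFAT diet response (0 without it), Apln being added in both; it changed no other count by more than 1.5 times. In 10, 10 and 7 of 16 cases a library correlated best with its own number, among the 4 libraries of the same genotype and diet in the other depot. Apln in BAT, at 23 to 134 reads a library, was the member most limited by depth.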
